A study of Mus musculus with 28 samples.

Results

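The MHC class II presentation genes examined here are Cd74, H2-Aa, H2-Ab1, H2-Eb1, H2-DMa, H2-DMb1 and Ciita. These 7 genes were taken by symbol from the 43629 genes of the count table and were followed through all 28 libraries. The libraries came from the cortex of Glt25d2 BacTRAP mice, whose tagged ribosomes are driven by the Glt25d2 gene (now Colgalt2), a gene used to mark layer 5 projection neurons. Input RNA is that of the cortex before the pulldown, and IP RNA is what the tagged ribosomes pulled down. Each fraction had 5 healthy, 5 acute and 4 chronic libraries. Acute and chronic mice had experimental autoimmune encephalomyelitis (EAE), an autoimmune model of multiple sclerosis raised by immunization against the myelin peptide MOG35-55. Acute libraries are from day 15 after it and chronic libraries from day 30. All mice, the healthy ones included, carried the BacTRAP transgene. The sources used here do not give strain, sex or age, nor whether healthy mice received a control injection. Nothing in them ties each library to its own mouse, so the p-values rest on library-to-library spread that may be only technical.

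MHC class II molecules display peptides from proteins that a cell has taken up, and CD4+ T cells read them. In the mouse, H2-Aa and H2-Ab1 encode the alpha and beta chains of the I-A molecule, and H2-Eb1 encodes the beta chain of I-E. Cd74 encodes the invariant chain, which binds new class II molecules and steers them to endosomes. H2-DMa and H2-DMb1 encode chains of H2-DM, which removes the last piece of the invariant chain from the groove and lets peptide in. Ciita encodes the coactivator that switches on this gene set without binding DNA itself. It docks onto a complex of RFX, CREB and NF-Y proteins that sits on neighbouring X, X2 and Y boxes in the promoters. In the healthy brain, class II is known mainly from macrophages at its borders, and microglia gain it in inflammation, for example under interferon gamma.

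On chromosome 17 of GRCm38, within the MHC, lie 5 members. H2-DMa spans 34135182 to 34139101 and H2-DMb1 spans 34153072 to 34160230. H2-Ab1 lies at 34263209 to 34269418, H2-Aa at 34282744 to 34287827 and H2-Eb1 at 34305877 to 34316199. H2-Aa is on the minus strand, and the other MHC members are on the plus strand. Ciita lies on chromosome 16 at 10488178 to 10527564. Exons of Ciita overlap those of Dexi and exons of Cd74 overlap Mir5107, and since counting did not use strand, reads from the shared bases cannot be assigned to either gene. H2-DMb1 has a close paralogue, H2-DMb2, so its counts may be split.

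The promoters of H2-Eb1, H2-DMb1 and H2-Aa are shown because they are the 3 members with a RefSeq window at their counted start, and the boxes that the CIITA complex uses can be read in them. Each is the RefSeq window of 300 bases in GRCm38.p6, with 250 bases before and 50 after the RefSeq start, printed 5′ to 3′ on the gene's own strand. H2-Eb1 is chr17:34305617-34305916 on the plus strand, H2-DMb1 is chr17:34152941-34153240 on the plus strand and H2-Aa is chr17:34287774-34288073 on the minus strand. Capitals mark matches, on either strand, to AACNGATG for the X box, TGACGTCA for the X2 box and ATTGG for the Y box, whose reverse is CCAAT.
H2-Eb1: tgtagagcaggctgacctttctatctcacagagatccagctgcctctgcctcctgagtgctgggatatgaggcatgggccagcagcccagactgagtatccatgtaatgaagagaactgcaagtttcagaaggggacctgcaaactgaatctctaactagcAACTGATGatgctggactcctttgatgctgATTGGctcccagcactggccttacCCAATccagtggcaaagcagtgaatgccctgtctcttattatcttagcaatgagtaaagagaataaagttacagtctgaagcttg
H2-DMb1: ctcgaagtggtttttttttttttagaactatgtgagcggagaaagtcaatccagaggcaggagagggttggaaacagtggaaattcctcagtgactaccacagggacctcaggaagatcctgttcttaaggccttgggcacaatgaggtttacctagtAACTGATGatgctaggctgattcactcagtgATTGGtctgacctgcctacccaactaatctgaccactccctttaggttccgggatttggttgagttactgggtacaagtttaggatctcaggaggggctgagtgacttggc
H2-Aa: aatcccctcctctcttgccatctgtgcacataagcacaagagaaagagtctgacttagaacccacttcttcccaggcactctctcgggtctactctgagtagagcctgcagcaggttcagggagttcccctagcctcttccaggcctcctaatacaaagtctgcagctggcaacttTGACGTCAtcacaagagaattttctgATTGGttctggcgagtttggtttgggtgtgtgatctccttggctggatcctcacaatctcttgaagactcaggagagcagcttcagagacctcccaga

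H2-Eb1 and H2-DMb1 held nearly the same arrangement. The X box match AACTGATG lay at -89 to -82 from the start in H2-Eb1 and at -92 to -85 in H2-DMb1. A Y box followed in each, at -59 to -55 and at -61 to -57, with 22 and 23 bases between the boxes. H2-Eb1 had a further CCAAT at -35 to -31. The H2-Aa window had no match to the X box letters, and held TGACGTCA at -74 to -67 with a Y box 18 bases downstream at -48 to -44. The X2 letters were added to the search, and the X box letters shortened, after the sequences had been seen. Among 32851 promoter windows of the same length, 2.32% held the X box letters, 1.79% the X2 letters and 37.4% the Y box letters. X and Y letters occurred together in 0.88% and X2 and Y letters together in 0.642%. These matches describe the letters only, and no binding was measured here.

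Input libraries held 17848273 to 27915940 counts and IP libraries 6198088 to 21229550. Of 4410 genes at a mean of 0.5 to 5 CPM (counts scaled to library size) over all input libraries, an input library detected at least 99.1%. An IP library detected only 12.5% to 93.0% of them (median 30.2%). In healthy input the means of Cd74, H2-Aa, H2-Eb1 and Ciita lay in this range. H2-Ab1 (0.405 CPM) and H2-DMb1 (0.458) lay below it and H2-DMa (10.2) above. In acute input H2-DMb1 (2.55 CPM) and Ciita (4.06) lay in this range and the other members above it. Of 7520 genes at 10 to 100 CPM, an IP library detected 79.0% to 100% (median 96.4%). The common biological coefficient of variation, the relative spread between libraries of a group, was 0.101 in input and 1.06 in IP. Counts of 0 in an IP library were therefore common for genes at 0.5 to 5 CPM in input, and less so at 10 to 100 CPM. Of 8 layer 5 neuron markers, 4, 5 and 5 were higher in IP than in input in healthy, acute and chronic mice at an edgeR adjusted p under 0.05, and none was lower. Of 5 oligodendrocyte markers, 4, 4 and 3 were lower in IP and 1 was higher in chronic mice, and their summed level was at least 411 CPM in every IP library. In bulk RNA like this, a change in the number of cells and a change in RNA per cell cannot be told apart.

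In acute EAE, 6 of the 7 class II genes rose in whole-cortex input, and H2-DMa, the alpha chain of H2-DM, did not pass the test. The I-A chains and the invariant chain rose most, from at most 2.48 CPM in every healthy library to 9.54 CPM or more in every acute library. The regulator Ciita and the loading chain H2-DMb1 rose by smaller amounts. Over all genes tested, 11.1% were higher in acute input, and for 9.11% every acute library was above every healthy one, as it was for these 6 members. Levels below are CPM scaled by the trimmed mean of M values (TMM), log2 changes are given ± standard error, and adjusted p-values are Benjamini-Hochberg values of edgeR's quasi-likelihood test over 16381 genes.

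Cd74, the invariant chain, was at 1.75, 1.81, 2.48, 2.06 and 1.44 CPM in the 5 healthy input libraries. In the acute libraries it was at 52.4, 34.2, 54.9, 47.5 and 50.7 CPM. In the chronic libraries it was at 21.3, 16.8, 16.0 and 72.5 CPM. Every EAE library was far above every healthy library, and chronic library 4 was above every acute library. The acute change was 4.65 ± 0.51 on the log2 scale (adjusted p = 7.33e-05), and the chronic change was 4.05 ± 0.53 (adjusted p = 0.00257).

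H2-Aa, the I-A alpha chain, was at 0.750, 0.275, 0.957, 0.487 and 0.277 CPM in healthy input. It reached 23.6, 11.8, 21.0, 18.5 and 18.6 CPM in acute input. Chronic input gave 6.66, 7.32, 6.08 and 25.3 CPM. As for Cd74, the healthy group overlapped neither EAE group, and chronic library 4 was the highest of all 14 libraries. The log2 change was 5.06 ± 0.56 in acute EAE (adjusted p = 5.91e-05) and 4.35 ± 0.59 in chronic EAE (adjusted p = 0.00266).

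H2-Ab1, the I-A beta chain, was at 0.200, 0.165, 0.788, 0.650 and 0.222 CPM in healthy input, that is 3 to 14 counts a library. It was at 14.8, 9.54, 15.5, 13.7 and 14.8 CPM in acute input. Its chronic levels were 5.44, 5.13, 3.62 and 22.7 CPM. Its changes, 5.06 ± 0.66 (adjusted p = 0.000215) and 4.50 ± 0.69 (adjusted p = 0.00470), were close to those of its partner H2-Aa.

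H2-Eb1, the I-E beta chain, started higher, at 1.30, 0.384, 1.46, 1.35 and 2.05 CPM in healthy input. Acute levels were 21.8, 16.8, 21.7, 20.1 and 22.2 CPM, with a smaller relative spread than healthy levels. Chronic levels were 7.44, 8.64, 7.84 and 28.1 CPM. The groups again did not overlap with healthy. The log2 change was 3.96 ± 0.46 in acute (adjusted p = 8.93e-05) and 3.31 ± 0.48 in chronic EAE (adjusted p = 0.00385). The gene for its alpha chain partner is listed only as the pseudogene H2-Ea-ps, which had 0 counts in all 28 libraries, so no I-E alpha message was seen.

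Of the H2-DM chains, the alpha chain passed in neither phase and the beta chain in both; the difference between them was not tested. H2-DMa was at 9.45, 8.84, 14.6, 8.67 and 9.54 CPM in healthy input. It was at 12.6, 11.4, 13.7, 11.6 and 14.6 CPM in acute input and at 11.9, 11.2, 9.06 and 14.4 CPM in chronic input. These groups overlapped, with log2 changes of 0.32 ± 0.14 (adjusted p = 0.127) and 0.19 ± 0.15 (adjusted p = 0.624). Healthy library 3 was the highest of its group. Without it the acute change was 0.48 ± 0.12 and passed the test (adjusted p = 0.00761), as in no other of the 10 fits that each left out 1 library.

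H2-DMb1 was at 0.300, 0.549, 0.676, 0.379 and 0.388 CPM in healthy input. Acute levels were 2.20, 1.83, 3.57, 1.98 and 3.17 CPM, and chronic levels were 1.61, 0.966, 1.28 and 2.53 CPM. Both EAE groups lay wholly above healthy. The log2 change was 2.46 ± 0.32 in acute (adjusted p = 1.61e-05) and 1.79 ± 0.35 in chronic EAE (adjusted p = 0.00572).

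Ciita, the regulator, was at 0.400, 0.879, 0.394, 0.650 and 0.333 CPM in healthy input. It was at 5.86, 2.4, 5.87, 3.17 and 3.02 CPM in acute input, and at 1.55, 2.13, 0.906 and 2.16 CPM in chronic input. No library of one phase overlapped another phase, and the order was healthy, chronic, acute. The acute change was 2.91 ± 0.34 on the log2 scale (adjusted p = 7.60e-06). The chronic change was 1.66 ± 0.38 (adjusted p = 0.0214), and it fell to 1.52 ± 0.42 without chronic library 4 and then missed the threshold (adjusted p = 0.0908). It also missed the threshold without healthy library 1, 3 or 5 or chronic library 2, with adjusted p from 0.0514 to 0.0744.

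**Figure D1:**
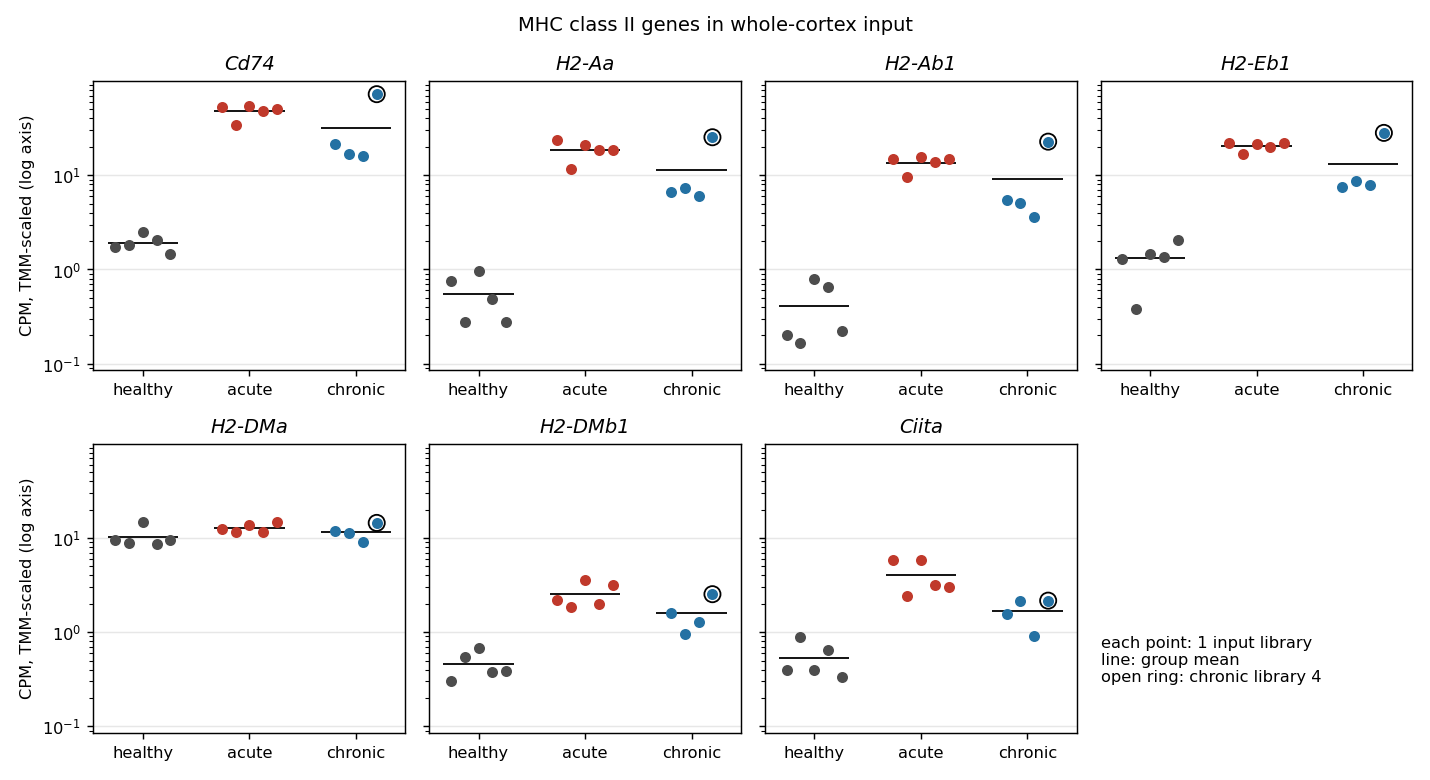
TMM-scaled CPM of each class II gene in the 14 input libraries, on a log axis, with 1 point a library, a line at the group mean and a ring around chronic library 4. Healthy Cd74 lies between 1.44 and 2.48 CPM and acute Cd74 between 34.2 and 54.9 CPM, chronic library 4 sits above the other chronic libraries for all 7 genes, and H2-DMa stays between 8.67 and 14.6 CPM in all 14 libraries.

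At day 30 the same 6 members were above healthy, against 2.33% of all genes tested, and their groups did not overlap, against 3.93% of all genes. Chronic library 4 carried much of their level. Its Cd74 was 4.02 times the mean of the other 3 chronic libraries, and the ratio was 3.78 for H2-Aa, 4.80 for H2-Ab1 and 3.53 for H2-Eb1. It was smaller for H2-DMb1 (1.97), Ciita (1.41) and H2-DMa (1.34), and the median over all genes was 0.992. Only 9 of 16381 genes had a higher ratio than H2-Ab1, and 27 had a higher ratio than H2-Eb1. Without this library, 5 members were above healthy, against 1.36% of all genes. The changes were then 3.23 ± 0.18 for Cd74 (adjusted p = 1.15e-07), 3.58 ± 0.30 for H2-Aa, 3.54 ± 0.33 for H2-Ab1, 2.60 ± 0.23 for H2-Eb1 and 1.47 ± 0.35 for H2-DMb1 (adjusted p = 0.0337), all on the log2 scale.

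Between day 15 and day 30 only Ciita fell when all libraries were used, by 1.25 ± 0.31 on the log2 scale (adjusted p = 0.0196), where 4.74% of all genes were lower in chronic input and 6.38% had every chronic library below every acute one. The other differences, chronic minus acute, were -0.60 ± 0.40 for Cd74, -0.72 ± 0.40 for H2-Aa, -0.56 ± 0.47 for H2-Ab1, -0.65 ± 0.38 for H2-Eb1, -0.67 ± 0.29 for H2-DMb1 and -0.13 ± 0.15 for H2-DMa, and none of them passed. Leaving out chronic library 4 changed this comparison most. Then 5 members were lower in chronic than in acute input, against 4.27% of all genes. Cd74 fell by 1.41 ± 0.15 (adjusted p = 0.000121), H2-Aa by 1.48 ± 0.22 (adjusted p = 0.00106), H2-Ab1 by 1.53 ± 0.23 (adjusted p = 0.000977), H2-Eb1 by 1.36 ± 0.19 (adjusted p = 0.000589) and Ciita by 1.40 ± 0.35 (adjusted p = 0.0228). H2-DMb1 was at -0.99 ± 0.30 with an adjusted p of 0.0501. The Ciita fall missed the threshold without acute library 3, chronic library 1 or chronic library 3, with adjusted p from 0.0546 to 0.0598.

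**Figure D2:**
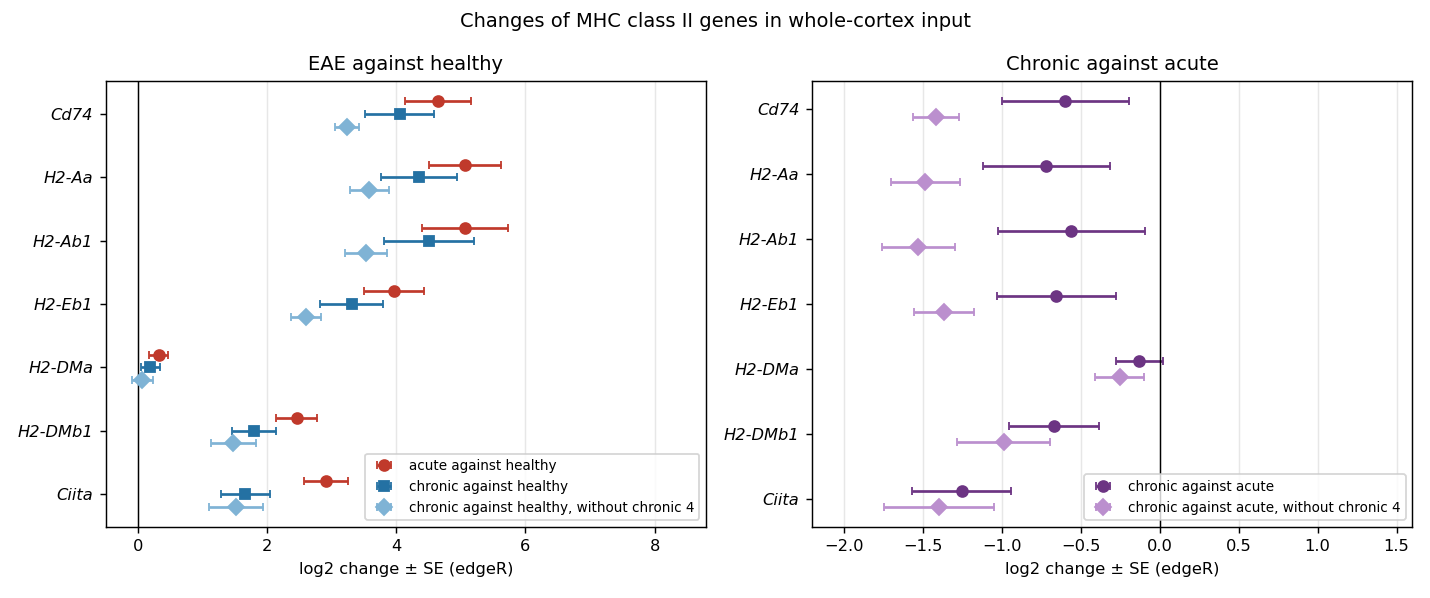
Log2 change of each class II gene in input, with bars for ± 1 standard error: EAE against healthy on the left, chronic against acute on the right, the latter and chronic against healthy also without chronic library 4. The chronic changes from healthy shrink without that library, and the chronic minus acute difference of Cd74 moves from -0.60 to -1.41.

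Chronic library 4 was also high for other genes. All 10 class I presentation genes and all 10 antiviral interferon-stimulated genes examined were above the other 3 chronic libraries, with median ratios of 2.45 and 1.87. So were 10 of 11 microglia markers (1.95), 5 of 6 astrocyte markers (1.79), all 4 tested T cell markers (2.63), 5 of 6 border macrophage markers (1.51) and all 5 oligodendrocyte markers (1.47). Of other lists, 2 of 5 monocyte (1.42), 2 of 4 tested dendritic cell (1.17) and 1 of 2 tested B cell markers (1.30) were. So were 3 of 6 inhibitory neuron (1.07) and 1 of 6 endothelial markers (1.08), and none of 8 layer 5 neuron markers (0.964). The share of all genes above the other 3 chronic libraries was not computed, and the median ratio over all genes was 0.992. The part of cell content in the height of this library was not tested.

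Levels divided by the summed exon length can be compared between genes. In healthy input the order was H2-DMa at 6.23 ± 1.52 CPM per kb (SD, n = 5), Cd74 at 1.35 ± 0.274, H2-Eb1 at 1.11 ± 0.506, H2-DMb1 at 0.309 ± 0.102, H2-Aa at 0.293 ± 0.160, H2-Ab1 at 0.247 ± 0.178 and Ciita at 0.101 ± 0.0436. Cd74 and H2-Eb1 lay within each other's spread, as did H2-DMb1, H2-Aa and H2-Ab1. In acute input Cd74 led at 34.0 ± 5.77 CPM per kb, followed by H2-Eb1 at 17.3 ± 1.88, H2-Aa at 9.98 ± 2.36, H2-Ab1 at 8.34 ± 1.46, H2-DMa at 7.79 ± 0.833, H2-DMb1 at 1.72 ± 0.521 and Ciita at 0.774 ± 0.317. Here the ranges of mean ± SD of H2-Aa, H2-Ab1 and H2-DMa overlapped.

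The make-up of the class II message differed between phases, with an H2-DM chain as the largest share in healthy cortex and the invariant chain as the largest in EAE. H2-DMa made up 64.6% ± 3.72 of the summed CPM per kb of the 7 genes in healthy input (SD, n = 5), 9.87% ± 1.24 in acute (n = 5) and 16.5% ± 5.86 in chronic input (n = 4). Cd74 went the other way, from 14.2% ± 2.28 to 42.4% ± 0.971 and 39.7% ± 4.45. The I-A chains together with H2-Eb1 gained as well, H2-Aa from 2.94% ± 1.23 to 12.4% ± 1.41, H2-Ab1 from 2.44% ± 1.48 to 10.4% ± 0.349 and H2-Eb1 from 11.5% ± 5.38 to 21.8% ± 1.35 in acute input. Within acute input these shares varied little between libraries, the Cd74 share lying between 41.0% and 43.4% while its level ran from 34.2 to 54.9 CPM. These shares add to a fixed total, so a gain in some members lowers the others.

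**Figure D3:**
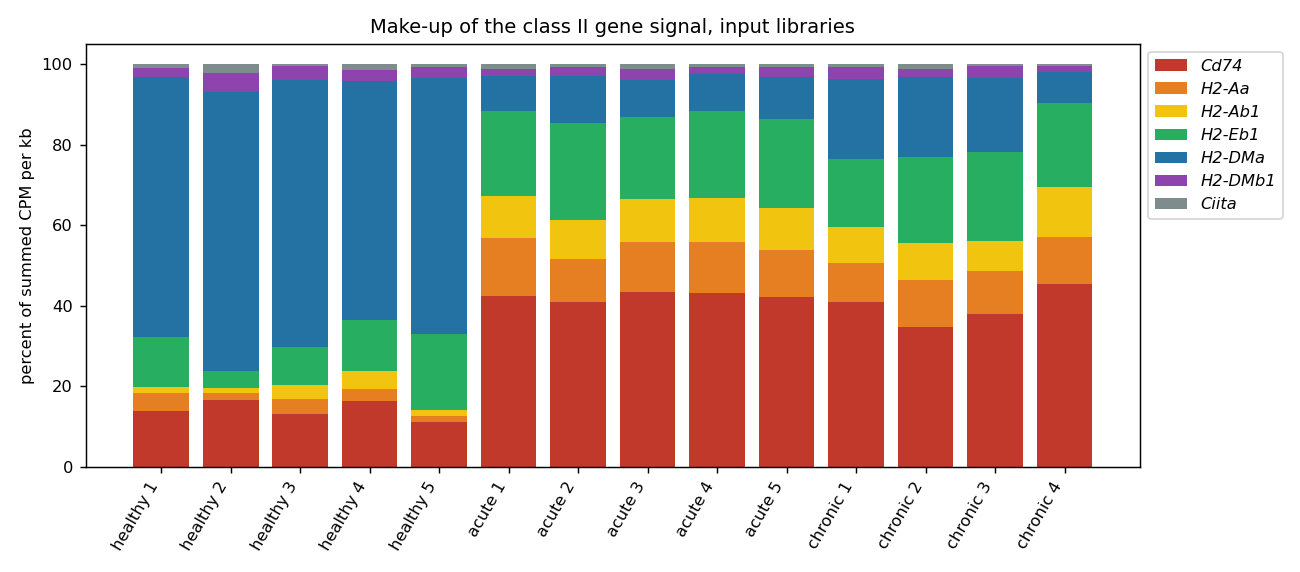
Percent of the summed CPM per kb of the 7 class II genes taken by each gene, with 1 bar for each input library. H2-DMa takes 59.2% to 69.2% in healthy libraries and 8.75% to 11.8% in acute libraries, and chronic library 4, at 7.76%, lies just below the acute libraries.

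Other class II genes were measured at low levels. H2-Oa, the alpha chain of H2-DO, which restrains H2-DM, was higher in acute input (3.58 ± 0.77 on the log2 scale, adjusted p = 0.00259), as was H2-DMb2 (1.44 ± 0.45, adjusted p = 0.0303). Neither passed in chronic input, with adjusted p of 0.118 and 0.374. H2-Ob and H2-Eb2 were under the filter on low counts.

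Among 9 genes of antigen processing, 4 rose in acute and 3 in chronic input, and none fell. Ctss encodes cathepsin S, the protease that trims the invariant chain in macrophages and dendritic cells. It rose by 2.30 ± 0.38 in acute (adjusted p = 0.00121) and by 1.87 ± 0.40 in chronic EAE (adjusted p = 0.0285). Ifi30, the thiol reductase that unfolds disulfide-bonded antigens, rose by 2.69 ± 0.32 and 1.99 ± 0.35. Ctsh rose by 1.89 ± 0.26 and 1.48 ± 0.28, and Ctsz by 0.69 ± 0.18 in acute EAE, with a chronic value of 0.40 ± 0.19 that did not pass. The broadly expressed cathepsins Ctsb (0.10 ± 0.14), Ctsd (0.23 ± 0.19) and Ctsl (0.10 ± 0.16), with Lgmn (0.28 ± 0.16) and Sppl2a (-0.04 ± 0.13), did not pass in acute EAE. The list's median was 0.28 in acute input, against 3.96 for the class II members and -0.01 for all genes.

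The DNA-bound partners of CIITA were not among the genes called. Acute log2 changes were 0.01 ± 0.09 for Rfx5, 0.02 ± 0.05 for Rfxap, 0.04 ± 0.08 for Rfxank, -0.12 ± 0.06 for Creb1, -0.06 ± 0.07 for Nfya, -0.08 ± 0.06 for Nfyb and 0.08 ± 0.06 for Nfyc. None passed in either phase, with standard errors of at most 0.10, beside the acute change of 2.91 for Ciita. Of all 16381 genes tested, 1407 were called lower than healthy in acute input and 67 in chronic input. Of 10 genes of this regulatory list 1 was called, and it was lower, a share near that of all genes in acute input. March1, a ubiquitin ligase that sends class II from the surface to degradation, fell by 0.43 ± 0.06 in acute (adjusted p = 1.87e-05) and by 0.27 ± 0.06 in chronic input (adjusted p = 0.0168). Its relative March8 (-0.01 ± 0.06) and Cd83, which opposes March1 (0.22 ± 0.13), did not pass in acute EAE.

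The interferon gamma axis, the classical inducer of Ciita, had genes higher in acute input. The transcription factor Irf1 rose by 2.48 ± 0.22 (adjusted p = 3.97e-06), the feedback inhibitor Socs1 by 1.95 ± 0.29 (adjusted p = 0.000101) and Jak2 by 0.20 ± 0.07 (adjusted p = 0.0443). The receptor chains Ifngr1 (0.41 ± 0.21) and Ifngr2 (0.09 ± 0.06) and the kinase Jak1 (-0.08 ± 0.07) did not pass. Ifng itself was under the filter, at a mean of 0.108 CPM in acute input and with 0 counts in healthy and chronic input. In chronic input Irf1 (1.21 ± 0.24, adjusted p = 0.0125) was still above healthy. Irf1 and Socs1 were lower than in acute input, like Ciita, with Irf1 at -1.27 ± 0.22 (adjusted p = 0.00400) and Socs1 at -1.31 ± 0.29 (adjusted p = 0.0111). In acute and chronic input the 2 changes from healthy share the same healthy libraries. Without chronic library 4, Irf1 did not pass against healthy at day 30.

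Genes that accompany class II at the contact with T cells rose where they could be tested. In acute input the costimulatory ligand Cd86 (1.09 ± 0.34, adjusted p = 0.0281), the adhesion molecule Icam1 (2.49 ± 0.36, adjusted p = 5.90e-05) and Cd274, which encodes the inhibitory ligand PD-L1 (3.71 ± 0.34, adjusted p = 5.61e-06), passed. Icam1 (1.89 ± 0.39) and Cd274 (2.24 ± 0.37) also passed in chronic input, and Cd274 fell between the phases (-1.47 ± 0.30, adjusted p = 0.0102). Cd80, Cd40 and Pdcd1lg2 were under the filter.

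Set beside class I presentation genes and antiviral interferon-stimulated genes, the class II members stood between them in acute input. Acute medians were 3.96 for class II, 3.17 for class I and 4.19 for the antiviral genes, with 6 of 7, 10 of 10 and 10 of 10 called. At day 30 the medians were 3.31, 2.37 and 1.87, with 6 of 7, 7 of 10 and 6 of 10 above healthy. Without chronic library 4 they were 2.60, 1.75 and 1.6, with 5 of 7, 7 of 10 and 2 of 10 above healthy. From acute to chronic, 1 of 7 class II, 5 of 10 class I and 10 of 10 antiviral genes fell, with medians of -0.65, -0.84 and -2.08. Without chronic library 4 the falls became 5 of 7, 10 of 10 and 10 of 10, with medians of -1.40, -1.46 and -2.37. The median of all genes was within 0.01 of 0 in these comparisons. Whether the lists differ from each other was not tested.

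**Figure D4:**
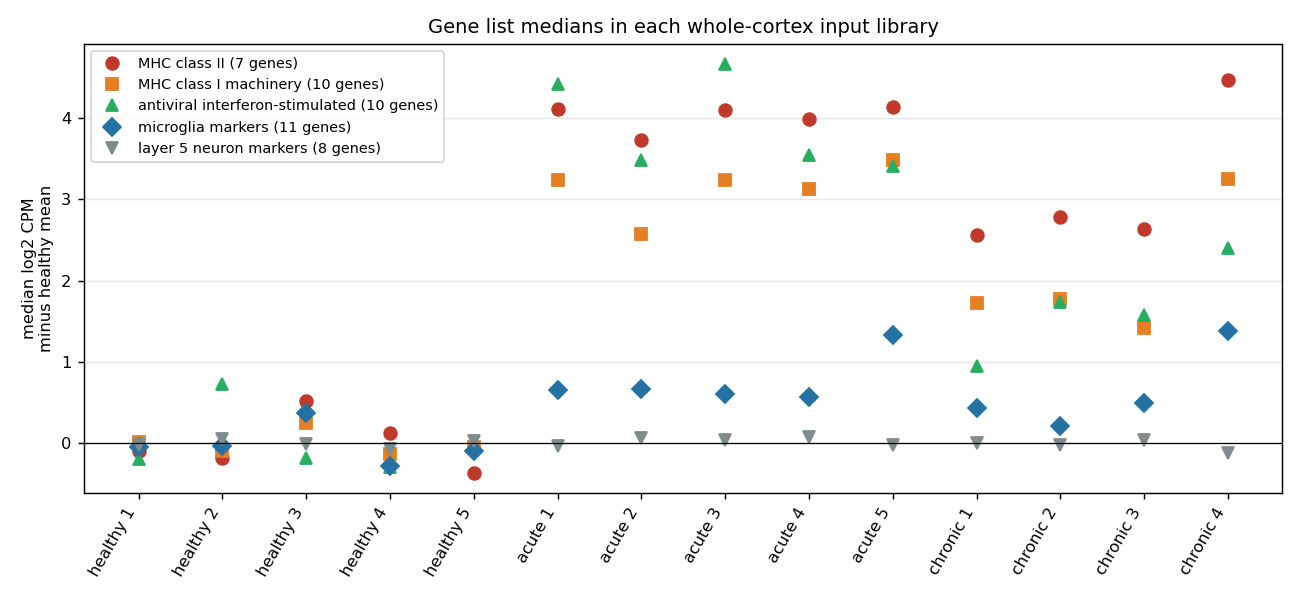
Median over each gene list of log2 CPM minus its healthy mean, with 1 point for each list in each of the 14 input libraries. Class II medians are 3.73 to 4.13 in acute libraries, 2.57 to 2.78 in chronic libraries 1 to 3 and 4.47 in chronic library 4, while the layer 5 neuron medians stay between -0.12 and 0.08.

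Some microglia, monocyte and border macrophage markers rose with these genes in acute input, and their part in the change was not tested. The summed level of 11 microglia markers was 79.6 to 108 CPM in healthy, 146 to 215 in acute and 110 to 226 in chronic input, with none at 0, and 6 of 11 rose and 1 fell in acute EAE. The homeostatic microglia gene P2ry12 was the one that fell (-0.54 ± 0.16, adjusted p = 0.0192), while C1qa, C1qb, Tyrobp, Aif1, Csf1r and Tmem119 rose. The 5 monocyte markers summed to 1.98 to 4.0 CPM in healthy, 19.4 to 47.9 in acute and 8.16 to 24.8 in chronic input, and all 5 rose in acute EAE. Ly6c2 and Chil3, both of inflammatory monocytes, had 0 counts in healthy input.

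Border macrophage markers summed to 6.16 to 7.77, 11.9 to 16.3 and 7.38 to 11.8 CPM, with 2 of 6 rising in acute EAE. Dendritic cell markers summed to 17.5 to 21.5, 19.7 to 23.3 and 18.8 to 21.1 CPM, most of it Zbtb46 and Flt3, with 1 of 4 tested rising in acute EAE. B cell markers summed to 37.2 to 49.9, 29.2 to 41.2 and 38.0 to 55.7 CPM, almost all of it Ighm, and Ms4a1 had 0 counts in healthy input. Of 2 tested B cell markers none rose in acute EAE, and Ighm fell by 0.36 ± 0.11 (adjusted p = 0.0319). T cell markers summed to 7.35 to 19.7, 6.92 to 13.7 and 7.62 to 24.6 CPM, with 2 of 4 tested rising in acute EAE, and Cd3d and Cd3g had 0 counts in healthy input. Cd4 was the largest part of the T cell sum, at a mean of 9.77 CPM in healthy and 4.72 in acute input. Of the other T cell markers, all but Ctla4 had a higher mean in acute than in healthy input, which the sum hides. In acute EAE the median log2 change was 0.78 over the microglia markers and 3.96 over the class II members, and the monocyte genes with counts in healthy input rose by 3.27 ± 0.36 (Lyz2), 2.41 ± 0.39 (Ccr2) and 7.06 ± 0.66 (Plac8, at a mean of 0.0338 CPM in healthy input).

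In the IP fraction, class II counts were uneven between libraries, and the members differed in the phases they were found in. Cd74 had 0, 23, 0, 0 and 0 counts in the 5 healthy IP libraries. It had 66, 168, 106, 634 and 669 counts in the acute and 72, 75, 382 and 1328 counts in the chronic IP libraries. Every EAE library was above every healthy library, and so it was for H2-Aa in acute IP. Such separation in the higher direction was found for 1.34% of genes in acute and 2.85% in chronic IP. The means were 0.286 ± 0.638 CPM in healthy (SD, n = 5), 20.3 ± 14.6 in acute (n = 5) and 28.4 ± 30.8 in chronic IP (n = 4).

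H2-Aa had no count in any healthy IP library, 76, 80, 91, 121 and 85 counts in acute and 0, 99, 0 and 147 in chronic IP. Against a floor of 3 counts over the healthy group, its pooled acute IP level was at least 168-fold higher and its chronic level at least 115-fold higher, with counting error alone considered. H2-Ab1 had 0, 0, 38, 17 and 90 counts in healthy, 0, 114, 155, 102 and 82 in acute and 43, 36, 0 and 542 in chronic IP. Unlike its partner chain, it was thus found in 3 of 5 healthy IP libraries. H2-Eb1 was found in 3 of 5 healthy (0, 73, 31, 31 and 0 counts), 3 of 5 acute (0, 102, 0, 194 and 134) and 1 of 4 chronic IP libraries (0, 0, 0 and 389).

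H2-DMa, the member that did not pass in input, was the most regular in IP, with 141, 207, 98, 163 and 315 counts in healthy and 153, 299, 86, 265 and 198 in acute libraries. Chronic libraries held 71, 328, 0 and 227 counts. Its IP level was 11.9 ± 7.01 CPM in healthy (SD, n = 5), 13.5 ± 1.34 in acute (n = 5) and 10.5 ± 11 in chronic mice (n = 4), near its input level. H2-DMb1 had no count in healthy IP, and 37 and 21 counts in acute libraries 4 and 5 and 118 in chronic library 4 were its only IP counts. Ciita was found only in acute IP libraries 4 and 5, with 11 and 9 counts.

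**Figure D5:**
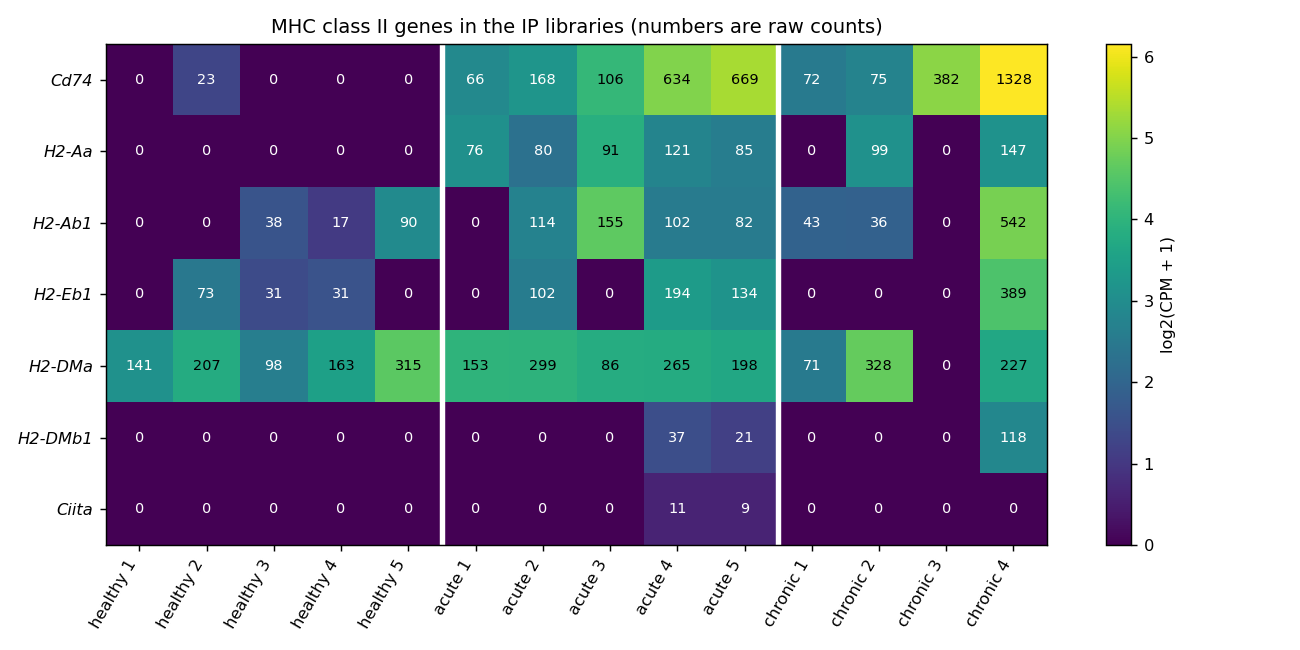
Raw counts of the 7 class II genes (rows) in the 14 IP libraries (columns), printed in each cell and coloured by log2(CPM + 1). Cd74 has counts in all 9 EAE libraries and in 1 of 5 healthy libraries, H2-DMa has counts in 13 of 14 libraries, and Ciita in 2.

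No class II member passed edgeR's test between phases in IP, where 5 of 7 members were above the filter. Over all genes tested, 0.0575% were called higher than healthy at day 15 and 0.18% at day 30, and 0% were higher in chronic than in acute IP. Cd74 had the log2 changes 6.12 ± 1.42 in acute (adjusted p = 0.150) and 6.60 ± 1.47 in chronic IP (adjusted p = 0.0629). At an unadjusted p under 0.05, 2 members, Cd74 and H2-Aa, passed in acute and the same 2 in chronic IP, and none in chronic against acute IP. Of all 13914 genes tested, 871, 1494 and 1145 passed at that level in these comparisons, in that order. The DESeq2 Wald test called 3 members higher in acute and 3 in chronic IP, namely Cd74, H2-Aa and H2-DMb1, where it called 1.19% and 1.96% of genes higher. Its log2 changes for H2-DMb1, 19.2 in acute and 20.6 in chronic IP, rest on counts in 2 acute libraries, 1 chronic library and no healthy one. They have no usable size. DESeq2 called no member in chronic against acute IP, where it called 0.525% of genes higher. Without healthy IP library 2, the only healthy one with Cd74 counts, edgeR called Cd74 in acute (adjusted p = 0.00981) and in chronic IP (adjusted p = 0.0133), and in no other fit that left out 1 library. H2-DMa changed by 0.19 ± 1.01 in acute and -0.18 ± 1.07 in chronic IP. For H2-DMb1 and Ciita, under the filter, the 2-sided exact permutation tests of CPM gave p from 0.444 to 1 (adjusted over 6 tests 0.667 to 1), where the smallest p possible was 0.00794.

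The IP fraction was then set against input within each phase, in a fit of all 28 libraries over 16580 genes. In healthy mice 4 members were lower in IP than in input, where 14.4% of all genes were lower. Cd74 was at -2.55 ± 0.93 on the log2 scale, IP minus input, with an edgeR adjusted p of 0.0487, and it passed in 1 of 5 fits that each left out the libraries of 1 number. H2-Aa, H2-DMb1 and Ciita had no healthy IP count, and their healthy input levels were at least 15.2-fold, 12.5-fold and 14.6-fold higher than the floor of 3 counts over the IP group. In acute mice 1 member was lower, Ciita, at -3.93 ± 1.12 (adjusted p = 0.0150), where 10.1% of all genes were lower. In chronic mice Ciita alone was lower, with its input level at least 33.3-fold higher than the IP floor, where 20% of all genes were lower. Without the chronic libraries numbered 4, the count there was 3 members, where 3824 of 16829 genes were lower, against 3315 of 16580 with them.

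For Cd74 the IP minus input difference was -1.04 ± 0.80 in acute (adjusted p = 0.425) and 0.04 ± 0.88 in chronic mice (adjusted p = 0.988). H2-DMa was at 0.39 ± 0.70, 0.26 ± 0.70 and 0.03 ± 0.78 in the 3 phases, and passed in none. Whether the change from healthy differed between IP and input was tested directly, and edgeR called no member in either phase, where 0.00603% and 0.633% of genes had a larger change in IP. This test used the fit of all 28 libraries, and the fractions differ widely in spread. For acute against healthy input, that fit called 1 class II member and 20 of all 16580 genes higher. The input fit called 6 members and 11.1% of genes higher there. The test can therefore miss large differences, and the lack of calls does not show that IP and input changed alike. For Cd74 the difference between the changes, IP minus input, was 1.51 ± 1.20 in acute (adjusted p = 0.840) and 2.58 ± 1.28 in chronic mice (adjusted p = 0.313). At an unadjusted p under 0.05, 1 and 2 members passed, as did 1901 and 2734 of all 16580 genes. The DESeq2 Wald test called 1 member in each phase, H2-DMb1, which had no healthy IP count, where it called 2.9% and 3.32% of genes higher. Without the healthy libraries numbered 2, Cd74 passed in chronic mice (adjusted p = 0.0275).

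Markers of other cell types were present in the IP too, and their part in its class II signal was not tested. The 11 microglia markers summed to 25.1 to 59.0 CPM in healthy, 7.15 to 87.4 in acute and 50.7 to 179 in chronic IP, with none at 0 throughout a phase. Monocyte markers summed to 0 to 3.78, 0 to 7.79 and 0 to 12.8 CPM, and Ccr2, Ly6c2, Plac8 and Chil3 had no count in healthy IP. Border macrophage markers summed to 0 to 6.50, 0 to 7.69 and 1.77 to 11.8 CPM, and Lyve1 and Pf4 had no count in healthy or chronic IP. Of the B cell markers, Ms4a1 had no count in any IP library, and of the dendritic cell markers neither did Xcr1 and Cd209a. Of the T cell markers, Cd3d, Icos and Ctla4 had none either. Chronic IP library 4 held the highest Cd74, H2-Ab1, H2-Eb1 and H2-DMb1 levels of all IP libraries, and chronic input library 4 the highest input levels of Cd74, H2-Aa, H2-Ab1 and H2-Eb1. In that IP library the oligodendrocyte markers summed to 1905 CPM (651 to 817 in the other chronic IP libraries), the astrocyte markers to 1264 (429 to 698) and the microglia markers to 179 (50.7 to 63.6). Its layer 5 neuron markers summed to 924 CPM, the lowest of the 14 IP libraries. The IP and input libraries numbered 4 share a number, and the labels do not say whether they share a mouse.

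The genes whose input levels moved most like the class II members between libraries of the same phase were then listed, over the 9 EAE input libraries and 13295 genes. For each gene, deviations from the phase mean were set against the mean deviation of the 6 members other than Ciita. The closest were B2m (Pearson r = 0.991), H2-K1 (0.988), Mpeg1 (0.982), Tap2 (0.977), Tmem123 (0.972), H2-Q4 (0.970), H2-D1 (0.969) and Cd52 (0.967). H2-K1, H2-D1, H2-Q4, B2m and Tap2 belong to class I presentation, and Mpeg1 encodes perforin-2 of macrophages. Spearman's rho was 0.883 to 0.983 for these 8 genes. With the points of chronic libraries 3 and 4, the farthest from the median, left out, r was 0.847 to 0.960. The deviations were still taken from phase means that held these 2 libraries. Chronic libraries 1 and 2 thus stayed at -0.247 and -0.388, and these r values are not free of library 4. These r values are descriptions with no test, since the genes were picked for them and the libraries share depth and composition.

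Ciita, which is not part of that mean, had r = 0.535 and rho = 0.7. With the points of the 2 farthest libraries left out its r was 0.402, again with deviations from phase means that held them. Its r cannot be ranked against those of the 8 genes, which were picked for theirs, and no difference was tested. Acute libraries 1 and 3 had the highest Ciita, 5.86 and 5.87 CPM, but Cd74 levels of 52.4 and 54.9 CPM, close to the 50.7 CPM of acute library 5, where Ciita was at 3.02 CPM. Of the 8 genes, 7 were called higher in acute input, with B2m, the class I light chain, at 2.25 ± 0.31 (adjusted p = 0.000384), H2-K1 at 3.71 ± 0.49 (adjusted p = 0.000303) and Cd52, a leukocyte surface protein, at 3.54 ± 0.32 (adjusted p = 1.21e-06). Tmem123 (0.31 ± 0.13, adjusted p = 0.113) did not pass.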

How the data were processed

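RNA from 28 cortex libraries was sequenced with poly A enrichment, 14 of IP and 14 of input. Per the file headers, the authors deposited gene counts made by featureCounts 1.5.1 from read pairs, ignoring strand, over Ensembl release 79 exons; a column holds exon length summed by gene. STAR 2.4, GRCm38 and DESeq2 are named in the submitters' processing notes. The header lists 36 alignment files, and 28 columns are held, which the library descriptions identify. Other columns were not analysed here. A symbol was found for 42462 of 43629 gene IDs (97.33%). Unstranded counting adds antisense reads to a gene, and paralogues may share or lose reads.

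Tests used edgeR 4.0.16 in R 4.3.3 (filterByExpr with a minimum count of 10 and a minimum total of 15, TMM scaling, robust quasi-likelihood F test, Benjamini-Hochberg adjustment over all genes tested, threshold 0.05). Input libraries (16381 genes) and IP libraries (13914 genes) were fitted apart for comparisons of phases, and together (16580 genes) for IP against input and the interactions, 11 contrasts in all. Log CPM used a prior count of 2. Floors are 3 counts over a group and, like all counts of reads, cover counting error only. Members under the IP filter were compared by exact permutation. The members, gene lists, marker lists and tests were chosen with earlier results of these data known. All members are named in every comparison, list genes may be named from any fixed list, and the 8 genes most like the members were taken by highest r. The fits were tested on simulated counts with planted changes between acute and healthy. Planted changes that the filter removed are not in these counts. The input fit recovered 77 of 96 planted 2-fold and 103 of 103 planted 4-fold changes. The IP fit recovered 13 of 95 and 32 of 86, so it misses many changes of that size. Genes without a planted change made up 14 of 194 input calls and 2 of 47 IP calls. Alternatives were DESeq2 size factors, no filter, the DESeq2 1.42.0 Wald test, a replicate block, all 28 libraries in 1 fit for the comparisons of phases, CPM on library totals, and each library left out in turn, and list counts without chronic input library 4 were added after seeing the data. Promoters are from RefSeq (GRCm38.p6), where 3 members had a window at their counted start. Plots come from matplotlib 3.10.9 under Python 3.11.15. Some genes of the fixed lists are not reported here.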

Additional observations from a re-analysis of the deposited data

Results flagged for a closer look

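Among 38 groups of 4 or 5 libraries with counts, 10 had a library far from the others by Dixon's test. For independent groups of normally spread values, chance flags about 1 in 20. These groups are 7 genes in the same libraries and are not independent, so 10 of 38 cannot be judged against that rate. Of these, 4 were chronic input library 4, which stood at 72.5 CPM for Cd74 (next highest 21.3), 25.3 CPM for H2-Aa (next 7.32), 22.7 CPM for H2-Ab1 (next 5.44) and 28.1 CPM for H2-Eb1 (next 8.64). Chronic IP library 4 stood apart for H2-Ab1 at 28.7 CPM (next 2.83), H2-Eb1 at 20.6 CPM (others 0) and H2-DMb1 at 6.25 CPM (others 0). The remaining 3 were healthy IP library 2 for Cd74 at 1.43 CPM (others 0), acute IP library 3 for H2-Ab1 at 23.6 CPM (next 5.63) and healthy input library 3 for H2-DMa at 14.6 CPM (next 9.54). In 3 of the 10 groups every other library was at 0, so that counts in 1 library are flagged by construction and the chance rate does not apply. The library of chronic input numbered 4 and that of chronic IP numbered 4 were flagged together for H2-Ab1 and H2-Eb1.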

How the results depend on the processing

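Of 140 recomputed counts of class II members called, 117 stayed within 1.5 times, and of 490 recomputed single members 438 kept their direction and side of the threshold. With all 28 libraries in 1 fit, 1 member was called in acute input against healthy and 0 in either chronic input comparison. Acute and chronic IP against healthy and chronic against acute IP gave 4, 3 and 1 members. Of all 16580 genes, this fit called 20 higher and 0 lower in acute input, and 0 in either chronic input comparison. In those IP comparisons it called 1267, 1140 and 374 genes higher and 344, 1410 and 1388 lower. Calls over all genes thus moved the same way. DESeq2 called 3 members in acute IP, 3 in chronic IP, and 1 in each interaction, and gave no p for H2-Ab1 in input. DESeq2 size factors gave 1 in chronic IP, where edgeR with TMM gave 0. Leaving out 1 library gave 0 to 5 members in chronic against acute input, 0 to 1 in acute IP, 0 to 1 in chronic IP, 2 to 3 for IP against input in healthy and 1 to 3 in chronic mice, and 0 to 1 in the chronic interaction; the cause was not tested beyond the values given for chronic library 4 and healthy IP library 2.

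Correlations of same-numbered deviations ran from -0.111 to 0.186 between phases and from -0.00842 to 0.143 between IP and input. Differently numbered libraries were not compared, and the wide spread of IP libraries could hide a shared mouse. The check therefore does not settle whether numbers pair the libraries, and the main tests did not use them as pairs. With the replicate block, IP against input in acute mice gave 0 members, Ciita in chronic input missed the threshold (adjusted p = 0.0707), and 3 values that had not passed changed sign, to -0.50 for Cd74 and -1.03 for H2-DMa in chronic IP against input and to 0.0157 for H2-DMa in the acute interaction. Leaving out 1 library also turned values that had not passed: H2-DMa ran from -1.09 to 0.23 in chronic IP against healthy, -1.28 to 0.0476 in chronic against acute IP, -0.0277 to 0.74 and -0.89 to 0.34 in healthy and chronic IP against input, and -0.48 to 0.29 and -1.28 to 0.0604 in the interactions. Cd74 ran from -0.50 to 0.86 in chronic against acute IP and from -0.25 to 0.24 in chronic IP against input, at -0.148 without the libraries numbered 4. CPM on library totals left the permutation p-values at 0.444 to 1. Depth limits H2-Ab1, H2-DMb1 and Ciita, with 37, 42 and 49 counts over the healthy input group.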
